A study of Mus musculus with 10 samples.

Results

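The genes described are 30 that encode the import of pyruvate into the mitochondrion, its conversion to acetyl-CoA or oxaloacetate, most steps of the tricarboxylic acid (TCA) cycle, and 3 enzymes that link the cycle to glutamate and aspartate. They were listed by symbol and matched to the Ensembl gene identifiers of the count files. All 30 were found among the 53465 genes of the files, and all 30 were among the 13182 genes that passed the filter on low counts. They lie on 15 chromosomes of the mouse genome.

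The RNA came from CD8 T cells of OT-I mice on the C57BL/6 strain, which carry a transgenic T cell receptor for a peptide of ovalbumin. Cells of the spleen and peripheral lymph nodes were activated with that peptide and interleukin-2 in 25 mM glucose for 3 days, then moved to 1 mM glucose for 24 h (groups labelled d5) or 120 h (groups labelled d9), and given 5 mM sodium acetate or none for the final day. Every group was therefore grown in low glucose, and every group was restimulated for 4 h with PMA, a phorbol ester, and the calcium ionophore ionomycin before RNA extraction. There were 2 libraries of d5 without acetate, 2 of d5 with acetate, 3 of d9 without acetate and 3 of d9 with acetate. The labelled days exceed the sum of the stated culture times, and the labels do not account for the difference. No label says that replicates came from separate cultures or mice, so each p-value reflects the spread between libraries alone, and that spread may be technical. In such bulk RNA a lower level can come from fewer cells that carry a transcript or from less transcript per cell, and these cannot be told apart.

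The TCA cycle oxidises the acetyl group of acetyl-CoA to carbon dioxide and passes the electrons to the respiratory chain, and its intermediates also feed the synthesis of lipids and amino acids. Pyruvate enters through the pyruvate dehydrogenase complex as acetyl-CoA or through pyruvate carboxylase as oxaloacetate, while glutamine enters by way of glutamate as 2-oxoglutarate. Activated T cells are known for their use of both glucose and glutamine, and acetate can be made into acetyl-CoA without passing through pyruvate.

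The libraries held 16588023 to 17971480 counts at d5 and 22966098 to 24659226 counts at d9. A pair of d9 libraries stood apart: ribosomal protein genes took 15.4% of the counts of d9 without acetate replicate 1 and 15.1% of those of d9 with acetate replicate 2, against 11.2% to 12.7% in the other 4 d9 libraries. The 7 markers of CD8 T cells summed to between 1881 and 2232 CPM (counts scaled to a common library size with TMM factors) at d5 and between 2398 and 2819 CPM at d9, so every d9 library was above every d5 library, and 5 of the 7 passed as higher at d9 without acetate and 2 with it. The 6 B cell markers summed to at most 4.89 CPM, and the neutrophil markers S100a8, S100a9 and Elane, the stromal marker Col3a1, the erythroid marker Hba-a1 and the dendritic cell marker Siglech were at 0 in every library. The 4 markers of CD4 T cells summed to 117 to 169 CPM, mostly Zbtb7b (106 to 163 CPM), while Cd4 itself was at most 1.70 CPM. The 6 monocyte and macrophage markers summed to 4.68 to 12.4 CPM. The summed markers of 3 further lists were higher in every d9 library than in every d5 library: NK cells (4 markers, 6.42 to 9.83 CPM at d5 and 38.5 to 58.7 at d9, mostly Eomes and Klrb1c), dendritic cells (5 markers, 19.4 to 32.3 and 67.7 to 99.6 CPM, mostly Zbtb46) and neutrophils (4 markers, 0 at d5 and at most 1.25 CPM at d9). Those of stroma and endothelium (5 markers, mostly Pecam1) were 14.1 to 32.1 CPM at d5 and 29.3 to 52.9 CPM at d9, with some overlap. Of the other NK cell markers, Ncr1 was at most 0.263 CPM and Klra8 at most 0.0551 CPM. Of the other dendritic cell markers, Flt3 was at most 0.168 CPM, Xcr1 at most 0.292 CPM and Itgax at most 3.39 CPM. At d5 the monocyte and macrophage markers summed to 9.43 to 12.4 CPM without acetate and 4.68 to 6.55 CPM with it. The B cell markers summed to 1.38 to 1.81 and 3.53 to 4.89 CPM. The sums of CD8 T, CD4 T, NK, dendritic and stromal markers were also higher with acetate at d5, without overlap. At d9 the NK markers summed to 38.5 to 42.8 CPM without acetate and 51.1 to 58.7 CPM with it. The stromal sums were 29.3 to 36.6 and 46.0 to 52.9 CPM, and those of monocytes 8.09 to 10.4 and 6.14 to 6.74 CPM. The other sums overlapped at d9. Over all tested genes, libraries with and without acetate did not overlap for 59.0% at d5 and 18.7% at d9. In each of the CD8 T, B, NK and monocyte lists, 1 marker passed for acetate at d5 and 0 at d9. The part of these markers in the differences between d9 and d5, or between cultures with and without acetate, was not tested.

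The summed level of the 30 genes was similar throughout, at 3248 to 3355 CPM in the d5 libraries and 3204 to 3538 CPM in the d9 libraries, so the ranges overlapped. Per kilobase of exon sequence the levels differed widely between the genes. Mdh2, the mitochondrial malate dehydrogenase, had the highest mean over the 4 groups at 124 CPM per kb, followed by Got1, the cytosolic aspartate aminotransferase, at 108 and Cs, citrate synthase, at 70.5 CPM per kb. At the other end stood Idh1, the cytosolic NADP-linked isocitrate dehydrogenase, at 0.861 CPM per kb and the pyruvate dehydrogenase kinase gene Pdk2 at 0.786 CPM per kb. With the longest transcript as the length in place of all exons, Cs came before Got1 and Pdk2 before Idh1, and Mdh2 was still first. Idh1 had between 15 and 65 counts in a library, which limits what can be seen of it.

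**Figure D1:**
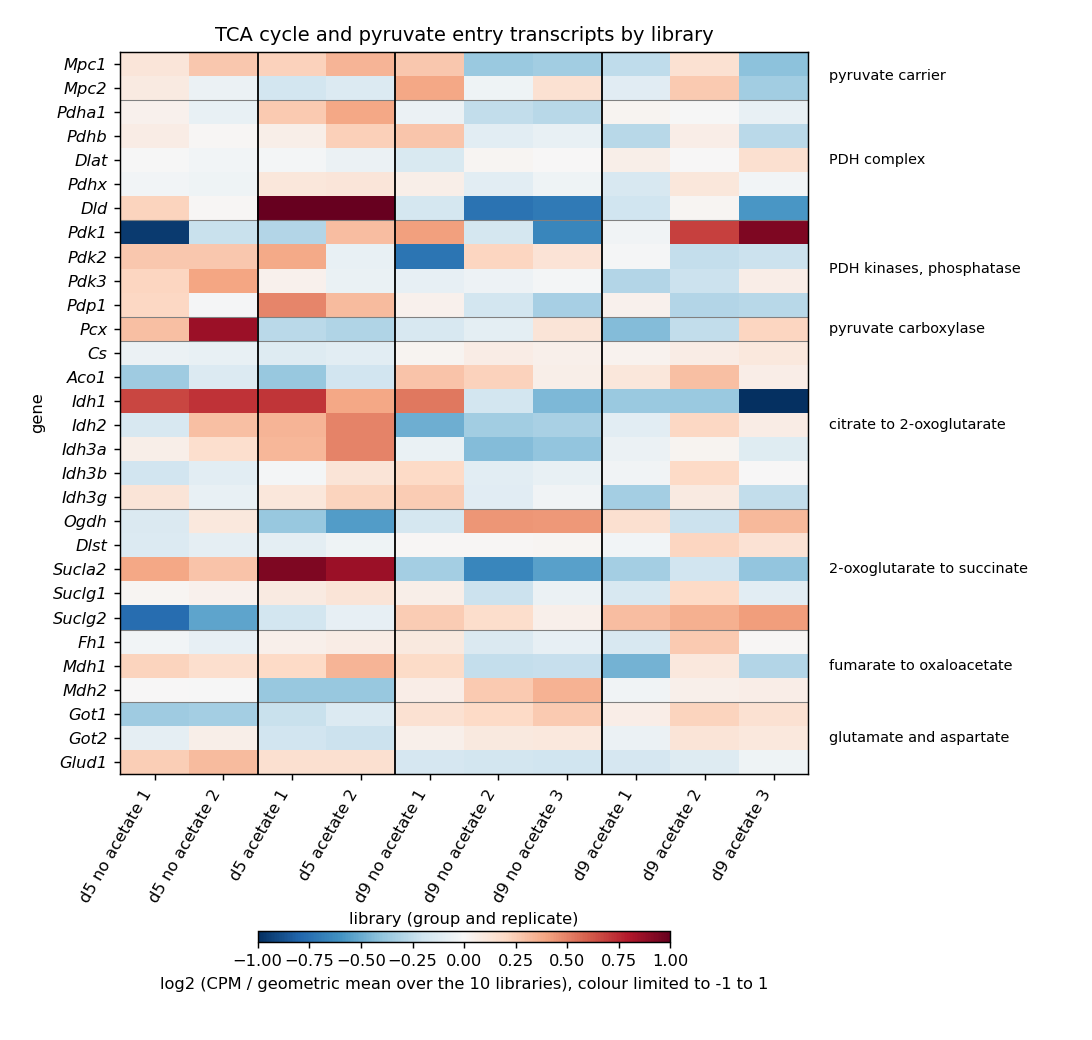
Level of each of the 30 genes in each of the 10 libraries, as the log2 ratio of its CPM to the gene's geometric mean (colour limited to -1 to 1), with genes in rows by role and libraries in columns by group. Sucla2, Dld and Glud1 were lower and Suclg2 and Got1 higher in the d9 libraries, while most other rows differ little from their mean.

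Between d5 and d9 the alternative succinyl-CoA ligase subunits changed in opposite directions, as did a pair of glutamate enzymes. The d9 cells were also longer in culture after activation, and the d9 libraries held more counts. No group was kept in high glucose, and the length of restriction cannot be told apart from time in culture or from any difference in processing by day. Without acetate, 9 of the 30 genes passed an adjusted p of 0.05 between d9 and d5 (edgeR quasi-likelihood test, Benjamini-Hochberg adjustment over 13182 genes). Aco1, Suclg2 and Got1 rose and Pcx, Idh2, Idh3a, Dld, Sucla2 and Glud1 fell. With acetate 12 of 30 passed, of which Aco1, Ogdh, Suclg2, Mdh2 and Got1 rose and Pdha1, Pdp1, Idh1, Idh3a, Dld, Sucla2 and Glud1 fell. Over all tested genes 37.1% passed without acetate (15.9% higher and 21.2% lower at d9) and 41.6% with acetate (18.5% higher and 23.1% lower). The shares of the 30 genes, 30% and 40%, were below these, so the number that changed is no result about the pathway. Without acetate the d9 and d5 libraries did not overlap for 15 of the 30 genes, beside 8318 of all 13182. With acetate they did not overlap for 21 of the 30, beside 8240 of all. Lack of overlap between the days was therefore common and by itself sets no gene apart.

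The median log2 difference between d9 and d5 of the 30 genes was -0.01 without acetate and -0.13 with it, beside -0.01 over all tested genes in both. Aco1, Idh3a, Dld, Sucla2, Suclg2, Got1 and Glud1 passed in the same direction in both comparisons, and no gene passed in opposite directions. Pcx and Idh2 passed without acetate alone, and Pdha1, Pdp1, Idh1, Ogdh and Mdh2 with acetate alone. The test of the difference between the day effects with and without acetate, which equals that between the acetate effects at d9 and d5, passed for none of them, so these 7 are not shown to differ by acetate. Without the 2 d9 libraries of high ribosomal protein share, 14 of the 30 genes passed without acetate, beside 46.0% of all tested genes. With acetate 18 of 30 passed, beside 51.5%. The share without acetate was then about equal to the background, and that with acetate was above it. The genes that passed then but not with all libraries were Mpc1, Pdha1, Pdk3, Idh1, Ogdh, Mdh1 and Mdh2 without acetate and Mpc1, Pdhb, Idh2, Idh3g, Suclg1 and Mdh1 with it. Pcx and Idh2 no longer passed without acetate. The count without acetate was 4 without d9 without acetate replicate 2, beside 29.56% of all tested genes, against 37.1% with all libraries. The count with acetate was 6 without d9 with acetate replicate 3, beside 32.97% of all tested genes, against 41.6%. The shares of all tested genes thus fell as well. Counts from fits without a d5 library are left aside, since 1 library then remained in that group.

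**Figure D2:**
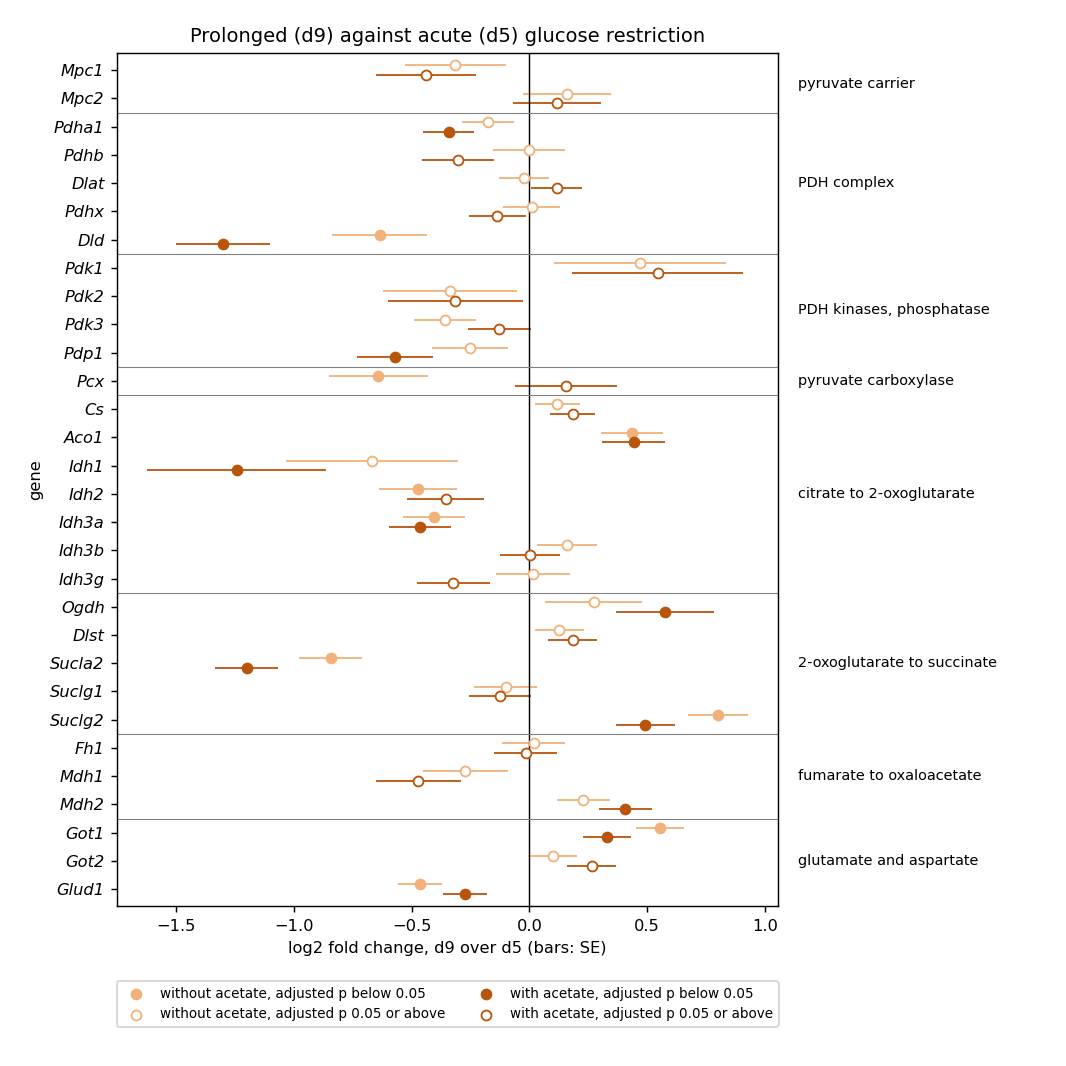
Log2 difference in level between d9 and d5 for each of the 30 genes, without and with acetate, with bars of 1 standard error and calls at an adjusted p of 0.05 marked. Suclg2 (0.80 and 0.49) lies to the positive side and Sucla2 (-0.84 and -1.20) to the negative side in both acetate states.

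Of the 21 calls in the comparisons of d9 with d5, 6 held under each of the 17 alternative settings and left-out libraries that were tried: Sucla2 in both acetate states, Suclg2, Got1 and Glud1 without acetate, and Dld with acetate. The sequences of the 250 bases before the RefSeq start of these 5 genes (build GRCm38.p6) are shown because the results rest most firmly on them, with matches to 5 motifs in capitals. The motifs were CCAAT (bound by NF-Y), CCGGAAG (bound by ETS factors), CACGTG (the E-box), AAGGTCA (bound by the oestrogen-related receptors) and the palindromic NRF1 motif, each read on both strands, and no matches overlapped. The stretches are Sucla2 chr14:73552536-73552785 (plus strand), Suclg2 chr6:95718847-95719096 (minus), Dld chr12:31351472-31351721 (minus), Got1 chr19:43524606-43524855 (minus) and Glud1 chr14:34310477-34310726 (plus).
Sucla2: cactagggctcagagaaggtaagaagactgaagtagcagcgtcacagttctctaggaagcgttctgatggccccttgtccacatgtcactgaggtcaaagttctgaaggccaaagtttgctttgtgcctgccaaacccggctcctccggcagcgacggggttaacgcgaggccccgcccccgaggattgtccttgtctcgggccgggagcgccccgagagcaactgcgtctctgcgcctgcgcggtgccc
Suclg2: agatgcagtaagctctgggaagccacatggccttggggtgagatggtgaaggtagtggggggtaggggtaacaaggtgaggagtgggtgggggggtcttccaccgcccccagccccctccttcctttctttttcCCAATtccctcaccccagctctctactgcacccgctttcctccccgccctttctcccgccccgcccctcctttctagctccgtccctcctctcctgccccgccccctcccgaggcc
Dld: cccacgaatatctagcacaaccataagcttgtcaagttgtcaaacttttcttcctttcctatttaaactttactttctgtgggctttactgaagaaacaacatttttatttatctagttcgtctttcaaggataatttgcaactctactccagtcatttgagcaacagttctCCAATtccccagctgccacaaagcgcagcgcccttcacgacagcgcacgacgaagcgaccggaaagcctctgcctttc
Got1: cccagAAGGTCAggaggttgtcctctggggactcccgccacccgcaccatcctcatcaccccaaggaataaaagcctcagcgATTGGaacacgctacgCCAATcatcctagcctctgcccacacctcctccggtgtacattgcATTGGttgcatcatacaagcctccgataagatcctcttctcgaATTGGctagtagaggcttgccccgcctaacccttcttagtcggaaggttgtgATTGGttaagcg
Glud1: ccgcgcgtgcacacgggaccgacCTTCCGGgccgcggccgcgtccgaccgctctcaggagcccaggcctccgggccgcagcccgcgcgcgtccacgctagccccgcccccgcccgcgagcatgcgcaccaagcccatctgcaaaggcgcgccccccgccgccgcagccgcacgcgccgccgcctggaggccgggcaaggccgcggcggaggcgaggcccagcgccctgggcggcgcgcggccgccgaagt
The Got1 stretch held 5 matches to CCAAT, of which 4 were on the other strand as ATTGG, and 1 to AAGGTCA. Suclg2 and Dld had 1 CCAAT each, Glud1 had 1 CCGGAAG, read on the other strand, and Sucla2 had no match. GENCODE M21 begins Sucla2 at 73525319, upstream of the RefSeq start used here. RefSeq promoters were matched for 28 of the 30 genes, all but Idh3a and Pdp1. CCAAT was found before 16 of the 28 (57.1%) and before 37.5% of all 27025 genes in the promoter table. CCGGAAG was found before 3 of 28 (10.7%) against 7.83%, CACGTG before 3 of 28 against 6.86%, AAGGTCA before 1 of 28 (3.57%) against 4.70%, and the NRF1 motif before 0 of 28 against 0.877%. These are matches of letters in a window and were not tested as sites.

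Succinyl-CoA ligase makes ATP or GTP from succinyl-CoA, depending on which beta subunit joins the shared alpha subunit. Sucla2 encodes the ATP-forming beta subunit, whose level was 23.1 and 21.6 CPM at d5 without acetate, 33.7 and 31.98 CPM at d5 with acetate, 13.9, 11.2 and 12.1 CPM at d9 without acetate and 13.99, 15.5 and 13.4 CPM at d9 with acetate. Every d9 library was below every d5 library. Sucla2 was 1.80-fold lower at d9 than at d5 without acetate (log2 difference -0.84 ± 0.14 SE, edgeR adjusted p = 8.46e-04) and 2.30-fold lower with acetate (-1.20 ± 0.13, edgeR adjusted p = 9.21e-05).

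Suclg2 encodes the GTP-forming beta subunit and moved the other way. Its level was 17.5 and 20.7 CPM at d5 without acetate, 26.2 and 28.2 CPM at d5 with acetate, 35.5, 33.6 and 30.8 CPM at d9 without acetate and 36.8, 38.02 and 39.9 CPM at d9 with acetate. All 6 d9 libraries were above all 4 d5 libraries. The rise was 1.74-fold without acetate (log2 difference 0.80 ± 0.13 SE, edgeR adjusted p = 8.21e-04) and 0.49 ± 0.13 on the log2 scale with acetate (edgeR adjusted p = 0.0100), where the call ended without d5 with acetate replicate 1 (edgeR adjusted p = 0.0847). A processed pseudogene, Gm15163, is 98.9% identical to Suclg2 over 1302 bases and had 2.06% as many counts.

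Per kilobase of exon, the level of Suclg2 was 0.656 to 0.828 times that of Sucla2 in the d5 libraries and 2.12 to 2.58 times in the d9 libraries. The order of the beta subunits was thus the opposite at d9, and it was so in every library. With the longest transcripts as lengths the ratios were 0.504 to 0.635 and 1.63 to 1.98. Suclg1, the alpha subunit that both forms share, was between 80.5 and 87.3 CPM at d5 and between 68.6 and 91.3 CPM at d9, with overlapping groups, and passed neither test with all libraries.

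**Figure D3:**
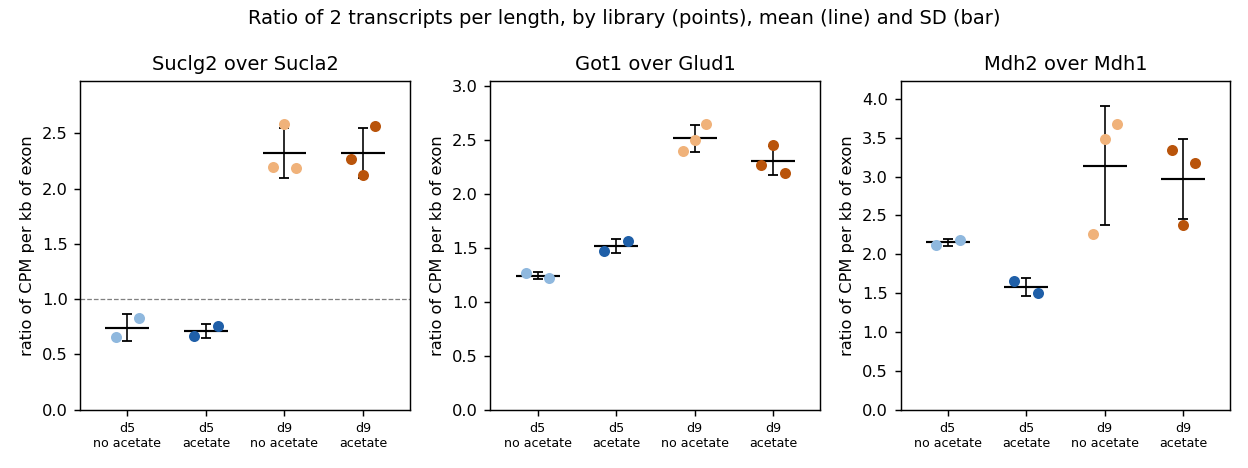
Ratio of levels per kilobase of exon, on a linear axis, for Suclg2 over Sucla2, Got1 over Glud1 and Mdh2 over Mdh1, with 1 point per library by group, lines at the group means and bars of 1 SD. For all these pairs every d9 library lies above every d5 library, and the first crosses a ratio of 1 between d5 (at most 0.828) and d9 (at least 2.12).

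Mpc1 and Mpc2 together form the mitochondrial pyruvate carrier, and neither passed a test with all libraries. Mpc1 was 33.9 to 39.4 CPM over the 4 d5 libraries. At d9 it was 37.6 and 34.6 CPM in the 2 libraries of high ribosomal protein share and 23.5 to 26.1 CPM in the other 4, and without those 2 libraries Mpc1 passed as lower at d9 in both acetate states. Mpc2 was 20.8 to 25.2 CPM at d5 and 18.7 to 30.99 CPM at d9. Counts on the pseudogene Mpc1-ps, which is 100% identical to Mpc1 over 261 bases, came to 18.6% of those on Mpc1, so reads may have been split between them and the level of Mpc1 is uncertain.

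The pyruvate dehydrogenase complex joins a dehydrogenase (Pdha1 and Pdhb), an acetyltransferase (Dlat), a binding protein (Pdhx) and dihydrolipoamide dehydrogenase (Dld), which the 2-oxoglutarate dehydrogenase complex also uses. Dld changed most of these. Its level was 58.7 and 50.5 CPM at d5 without acetate, 109 and 102 CPM at d5 with acetate, 44.5, 30.2 and 30.7 CPM at d9 without acetate and 43.8, 51.02 and 33.6 CPM at d9 with acetate. The d5 libraries with acetate were the highest and did not overlap with any other group, and within each acetate state all d9 libraries were below all d5 libraries. Dld was 2.47-fold lower at d9 than at d5 with acetate (log2 difference -1.30 ± 0.20 SE, edgeR adjusted p = 6.01e-04) and fell by 0.64 ± 0.20 on the log2 scale without acetate (edgeR adjusted p = 0.0305). The latter call ended when d5 without acetate replicate 1 or 2 or d9 without acetate replicate 2 or 3 was left out (edgeR adjusted p = 0.0740 to 0.182).

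Pdha1, which encodes the catalytic alpha subunit, had 167 and 182 CPM at d5 with acetate and 141, 139 and 132 CPM at d9 with acetate, and fell by 0.34 ± 0.11 on the log2 scale (edgeR adjusted p = 0.0274). This call held in 10 of the 17 alternatives and ended without any 1 of d5 with acetate replicate 1 or 2 and d9 with acetate replicate 2 or 3 (edgeR adjusted p = 0.0521 to 0.202). Without acetate it was 143 and 132 CPM at d5 and 115 to 133 CPM at d9, with overlap, and the test did not pass. Pdhb (95.9 to 141 CPM over all 10 libraries), Dlat (60.6 to 75.3 CPM) and Pdhx (24.95 to 30.1 CPM) passed in neither comparison. With acetate the log2 differences of Pdhb (-0.30) and Pdhx (-0.14) were negative like those of Pdha1 and Dld, while that of Dlat was 0.12. Whether the subunits differed from each other was not tested. Without acetate the level of Dld per kilobase was 2.28 and 2.00 times that of Pdhx at d5 and 1.21 to 1.63 times at d9. With acetate it was 3.85 and 3.61 times at d5 and 1.31 to 1.87 times at d9.

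The kinases encoded by Pdk1, Pdk2 and Pdk3 switch pyruvate dehydrogenase off by phosphorylation, and the phosphatase encoded by Pdp1 switches it on. None of the kinases passed in the main test. The replicates of Pdk1 spread widely, and all groups compared overlapped: 21.6 and 35.98 CPM at d5 without acetate, 34.3 and 51.9 CPM at d5 with acetate, 55.8, 37.1 and 26.8 CPM at d9 without acetate and 40.9, 67.6 and 80.2 CPM at d9 with acetate. Pdk3 was 42.3 and 47.8 CPM at d5 and 34.4, 35.1 and 35.98 CPM at d9 without acetate, groups that did not overlap, with a log2 difference of -0.36 ± 0.13 SE and an edgeR adjusted p of 0.0540. This difference passed in 6 of the 17 alternatives, with the lowest edgeR adjusted p, 0.0145, when scaled by total counts alone. With acetate Pdk3 was 37.5 and 34.8 CPM at d5 and 29.8, 31.4 and 38.1 CPM at d9, which overlapped. Pdk2 was low throughout, at 2.87 and 2.86 CPM at d5 without acetate, 3.08 and 2.26 CPM at d5 with acetate, 1.43, 2.75 and 2.61 CPM at d9 without acetate and 2.36, 2.02 and 2.05 CPM at d9 with acetate. Pdp1 was 27.7 and 24.5 CPM at d5 with acetate and 20.3, 16.1 and 16.2 CPM at d9 with acetate, and fell by 0.57 ± 0.16 on the log2 scale (edgeR adjusted p = 0.0159), a call that ended without d5 with acetate replicate 1 (edgeR adjusted p = 0.125) or d9 with acetate replicate 3 (0.0528). Without acetate Pdp1 was 22.8 and 19.5 CPM at d5 and 15.7 to 20.3 CPM at d9, which overlapped.

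Pyruvate carboxylase, encoded by Pcx, refills the cycle with oxaloacetate. Its level was 23.9 and 35.1 CPM at d5 without acetate, 16.1 and 15.8 CPM at d5 with acetate, 17.4, 18.2 and 21.1 CPM at d9 without acetate and 14.4, 16.4 and 22.5 CPM at d9 with acetate. The 2 libraries of d5 without acetate were the highest of all 10 and lay far apart from each other. Pcx fell between d5 and d9 without acetate by 0.64 ± 0.21 on the log2 scale (edgeR adjusted p = 0.0338), a call that ended without the 2 d9 libraries of high ribosomal protein share (edgeR adjusted p = 0.0554), without d5 without acetate replicate 2 (0.364) and without d9 without acetate replicate 1 (0.0801) or 2 (0.0847). With acetate the d9 libraries spanned the d5 libraries.

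From acetyl-CoA and oxaloacetate, citrate synthase (Cs) forms citrate, and aconitase and the isocitrate dehydrogenases carry it to 2-oxoglutarate. Cs was at 377 to 395 CPM at d5 and 419 to 441 CPM at d9, and every d9 library was above every d5 library. The edgeR test passed in neither acetate state, while DESeq2 called Cs with acetate (DESeq2 adjusted p = 0.0399). Aco1 encodes the cytosolic aconitase, which as iron regulatory protein can also bind messenger RNA. It was 46.01 and 53.6 CPM at d5 without acetate, 45.2 and 51.6 CPM at d5 with acetate, 71.7, 69.003 and 61.2 CPM at d9 without acetate and 63.6, 72.2 and 61.4 CPM at d9 with acetate. No d9 library overlapped with a d5 library, and the rise on the log2 scale was 0.44 ± 0.13 SE both without acetate (edgeR adjusted p = 0.0252) and with it (edgeR adjusted p = 0.0212). Both calls were lost when libraries were scaled by their total counts alone, with edgeR adjusted p of 0.0740 and 0.0646. The call without acetate also ended without d5 replicate 1 (edgeR adjusted p = 0.203) or d9 replicate 1 (0.0511) or 2 (0.0716), and that with acetate without d5 replicate 1 (0.163).

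The NAD-linked isocitrate dehydrogenase has an alpha, a beta and a gamma subunit, and with all libraries the gene of the catalytic alpha subunit passed alone. Idh3a was 77.7 and 83.5 CPM at d5 without acetate, 93.7 and 105 CPM at d5 with acetate, 70.99, 55.1 and 56.6 CPM at d9 without acetate and 71.6, 75.9 and 68.4 CPM at d9 with acetate. Within each acetate state all d9 libraries were below the d5 libraries, and Idh3a fell by 0.41 ± 0.13 on the log2 scale without acetate (edgeR adjusted p = 0.0335) and with acetate its difference was -0.47 ± 0.13 (edgeR adjusted p = 0.0162). The former call ended without either d5 library or d9 replicate 2 or 3 of the cultures without acetate (edgeR adjusted p = 0.0895 to 0.190), and the latter without d5 with acetate replicate 2 (0.139) or d9 with acetate replicate 3 (0.0523). Idh3b was 116 to 152 CPM and Idh3g 101 to 153 CPM over all libraries, and neither passed, although Idh3g passed as lower at d9 with acetate without the 2 d9 libraries of high ribosomal protein share, without d9 with acetate replicate 2 alone and when scaled by total counts alone. Whether the alpha subunit differed from the others was not tested.

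The NADP-linked isocitrate dehydrogenases are cytosolic (Idh1) and mitochondrial (Idh2). Idh2 was 13.1 and 17.99 CPM at d5 and 10.4, 11.5 and 11.7 CPM at d9 without acetate, and fell by 0.47 ± 0.17 on the log2 scale (edgeR adjusted p = 0.0451), a call that held in 4 of the 17 alternatives. It ended without any of 8 libraries, all but d5 without acetate replicate 1 and d9 with acetate replicate 1 (edgeR adjusted p = 0.0514 to 0.447). With acetate it was 18.5 and 20.6 CPM at d5 and 13.6, 16.9 and 15.4 CPM at d9, and the test did not pass. Idh1 was 3.31 and 2.63 CPM at d5 with acetate and 1.56, 1.56 and 0.640 CPM at d9 with acetate, and fell by 1.24 ± 0.38 on the log2 scale (edgeR adjusted p = 0.0232), a call that ended without d5 with acetate replicate 1 (edgeR adjusted p = 0.136) or 2 (0.0528) or d9 with acetate replicate 3 (0.0561). Without acetate Idh1 was 3.20 and 3.33 CPM at d5 and 2.91, 1.78 and 1.48 CPM at d9, which did not overlap and did not pass.

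The 2-oxoglutarate dehydrogenase complex consists of Ogdh, Dlst and the shared Dld. Ogdh was 180.2 and 215 CPM at d5 without acetate, 154 and 135 CPM at d5 with acetate, 177, 271 and 269 CPM at d9 without acetate and 223, 172 and 249.9 CPM at d9 with acetate. The 2 d9 libraries of high ribosomal protein share were the lowest of their groups, at 177 and 172 CPM. Ogdh rose with acetate by 0.58 ± 0.21 on the log2 scale (edgeR adjusted p = 0.0463), a call that ended when any 1 of the other 8 libraries was left out (edgeR adjusted p = 0.0527 to 0.216). Without those 2 libraries the difference was 0.71 (edgeR adjusted p = 3.37e-04). Dlst, the succinyltransferase, was 163 to 174 CPM at d5 and 176 to 209 CPM at d9 and did not pass, although its groups did not overlap. In the same complex, then, Ogdh was higher and Dld lower at d9 with acetate.

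Fumarase (Fh1) and the malate dehydrogenases complete the cycle to oxaloacetate, the mitochondrial form (Mdh2) within it and the cytosolic form (Mdh1) in the exchange of malate and aspartate across the membrane. Mdh2 was 446 and 443 CPM at d5 without acetate, 343 and 341 CPM at d5 with acetate, 466, 532 and 565 CPM at d9 without acetate and 434, 460.4 and 466 CPM at d9 with acetate. The d5 libraries with acetate were the lowest of all, and with acetate Mdh2 rose between d5 and d9 by 0.41 ± 0.11 on the log2 scale (edgeR adjusted p = 0.0149), a call that ended without either d5 library with acetate (edgeR adjusted p = 0.0863 and 0.0865). Mdh1 was 151 and 146 CPM at d5 and 148, 110.1 and 111 CPM at d9 without acetate, with overlap and no call. It was 149 and 164 CPM at d5 with acetate and 93.5, 139.7 and 106 CPM at d9 with acetate, with a log2 difference of -0.47 ± 0.18 SE that did not pass (edgeR adjusted p = 0.0556). Without the 2 d9 libraries of high ribosomal protein share, where Mdh1 was 148 and 139.7 CPM, the difference was -0.66 and passed (edgeR adjusted p = 3.00e-04). Per kilobase, Mdh2 was 1.498 to 2.19 times Mdh1 at d5 and 2.26 to 3.68 times at d9. Fh1 was 87.4 to 117 CPM in all libraries and did not pass.

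**Figure D4:**
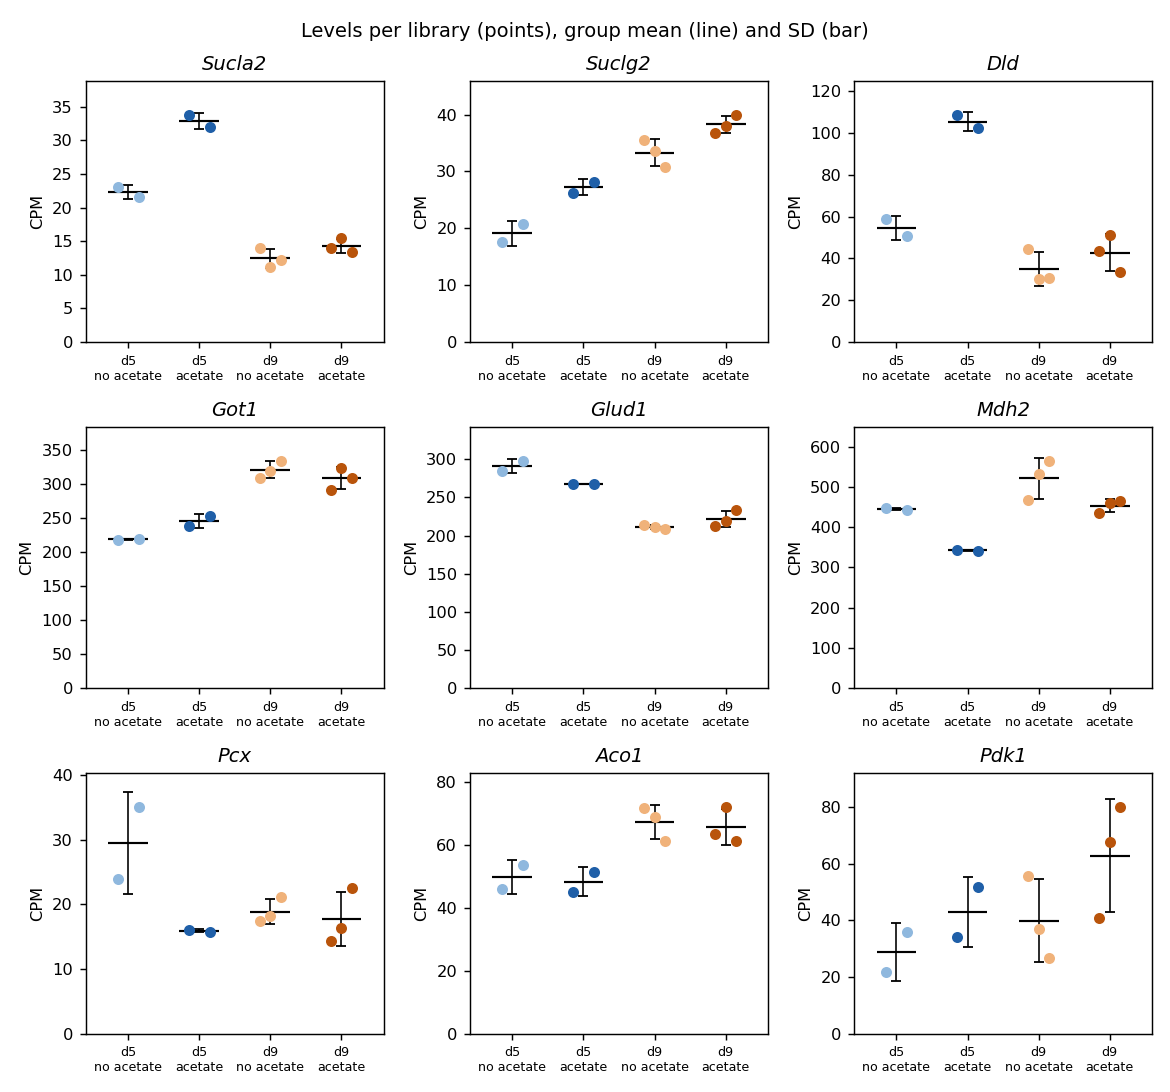
CPM of 9 of the genes in each library, with 1 point per library, a line at the group mean and bars of 1 SD. Sucla2 and Glud1 are lower and Suclg2 and Got1 higher in all d9 libraries, Dld is highest at d5 with acetate (109 and 102 CPM), and Pdk1 shows the wide spread between replicates.

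Glutamate dehydrogenase (Glud1) and the aspartate aminotransferases (Got1 in the cytosol, Got2 in the mitochondrion) turn glutamate into 2-oxoglutarate, the former with release of ammonium and the latter with transfer of the amino group to oxaloacetate. Glud1 was 284 and 298 CPM at d5 without acetate, 267 and 268 CPM at d5 with acetate, 213, 211 and 209 CPM at d9 without acetate and 213, 218 and 233 CPM at d9 with acetate. All d9 libraries lay below all d5 libraries. Glud1 fell by 0.46 ± 0.09 on the log2 scale without acetate (edgeR adjusted p = 0.00341) and with acetate its difference was -0.27 ± 0.09 (edgeR adjusted p = 0.0395). The latter call held in 4 of the 17 alternatives and ended without any of 9 libraries, all but d9 with acetate replicate 3 (edgeR adjusted p = 0.0618 to 0.175).

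Got1 was 217 and 219 CPM at d5 without acetate, 238 and 253 CPM at d5 with acetate, 309, 319 and 334 CPM at d9 without acetate and 292, 324 and 308 CPM at d9 with acetate. Here all d9 libraries lay above all d5 libraries, with a rise of 0.55 ± 0.10 on the log2 scale without acetate (edgeR adjusted p = 0.00189) and 0.33 ± 0.10 with it (edgeR adjusted p = 0.0240). Scaled by total counts alone, the latter did not pass (edgeR adjusted p = 0.0964), nor did it without either d5 library with acetate or d9 with acetate replicate 3 (edgeR adjusted p = 0.0541 to 0.163). Per kilobase, Got1 was 1.22 to 1.56 times Glud1 at d5 and 2.20 to 2.65 times at d9, again with no overlap. Got2 was 224 and 248 CPM at d5 without acetate, 208 and 206 CPM at d5 with acetate, 247, 255 and 257 CPM at d9 without acetate and 229, 260.4 and 256 CPM at d9 with acetate. The groups with acetate did not overlap between the days, but the log2 difference was 0.26 ± 0.10 SE and did not pass (edgeR adjusted p = 0.0633). It passed in 3 of the 17 alternatives, among them DESeq2 (DESeq2 adjusted p = 0.0325).

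Acetate for the last day changed none of the 30 genes past the threshold at d5 (edgeR quasi-likelihood test), where 1.52% of all tested genes passed. Unadjusted p was below 0.05 for 6 of the 30, beside 2612 of all 13182 genes. DESeq2 called 4 (Dld, Sucla2, Pcx and Suclg2), beside 5.96% of all genes. The smallest edgeR adjusted p, 0.0648, belonged to Dld, whose level was 58.7 and 50.5 CPM without acetate and 109 and 102 CPM with it, a log2 difference of 0.95 ± 0.22 SE. The other 5 differences were 0.56 ± 0.15 for Sucla2 (edgeR adjusted p = 0.0857), -0.89 ± 0.24 for Pcx (0.0857), 0.51 ± 0.14 for Suclg2 (0.0892), -0.38 ± 0.12 for Mdh2 (0.140) and 0.34 ± 0.12 for Pdha1 (0.166). Both beta subunits of succinyl-CoA ligase thus had higher values with acetate at d5, unlike between the days. The libraries of the d5 groups did not overlap for 20 of the 30 genes, beside 59.0% of all tested genes.

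These results at d5 depended on the libraries and the tool used. With the 4 d5 libraries fitted alone, 6 of the 30 genes passed (Pcx, Ogdh, Dld, Sucla2, Suclg2 and Mdh2), beside 13.9% of all tested genes. Without the 2 d9 libraries of high ribosomal protein share, 7 of 30 passed, those 6 and Pdha1, beside 16.7% of all. These libraries belong to neither group compared here. They take part through the shared estimate of the spread, the low-count filter and the scaling. Dld and Sucla2 passed without d9 without acetate replicate 1, and Dld alone without d9 with acetate replicate 2.

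At d9 acetate changed none of the 30 past the threshold either, where 0.0303% of all tested genes passed. Unadjusted p was below 0.05 for 1 of the 30, beside 2026 of all 13182 genes. This was Idh2, at 10.4, 11.5 and 11.7 CPM without acetate and 13.6, 16.9 and 15.4 CPM with it. Its groups did not overlap (log2 difference 0.45 ± 0.15 SE, edgeR adjusted p = 0.210). DESeq2 called 0 of the 30, beside 335 of all genes. The groups also did not overlap for Suclg2, higher with acetate, and Mdh2, lower with acetate, which makes 3 of 30 (10%) beside 18.7% of all tested genes. For Suclg2 and Mdh2 these were also the directions of the values at d5.

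The acetate effect differed between d9 and d5 for none of the 30 and for 0% of all tested genes by the edgeR interaction test. At an unadjusted p below 0.05 there were 2 of the 30 and 1015 of all genes, and DESeq2 called 0 of the 30 and 102 of all. The 2 were Pcx, with a difference of 0.80 ± 0.30 SE on the log2 scale (edgeR adjusted p = 0.553), and Dld, with -0.67 ± 0.29 (edgeR adjusted p = 0.630). Dld at d9 was 30.2 to 44.5 CPM without acetate and 33.6 to 51.02 CPM with it, which overlapped, while at d5 the groups lay far apart.

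**Figure D5:**
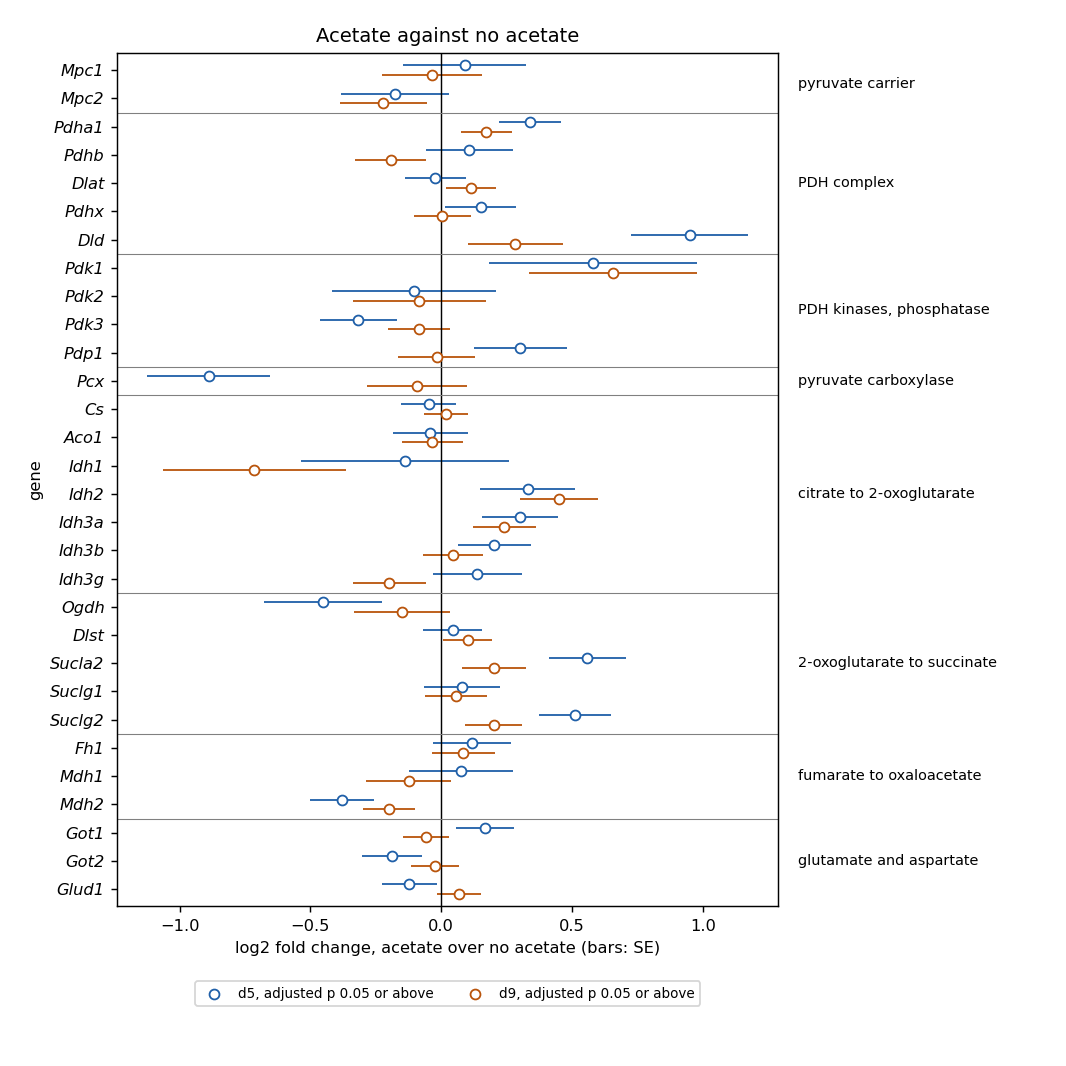
Log2 difference in level between cultures with and without acetate for each of the 30 genes at d5 and at d9, with bars of 1 standard error. No gene passed an adjusted p of 0.05; Dld (0.95) and Pcx (-0.89) at d5 lie farthest from 0.

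The 2 d9 libraries of high ribosomal protein share also stood apart in these genes. Both lay above all 4 other d9 libraries for 11 of the 30 genes (36.7%, beside 16.8% of all tested genes): Mpc1, Mpc2, Pdhb, Pdhx, Aco1, Idh3b, Idh3g, Dld, Suclg1, Fh1 and Mdh1. Both lay below for Dlat, Pdk2 and Ogdh (10%, beside 20.5%). One of the libraries is of d9 without acetate and the other of d9 with acetate, so that each group held 1. Without both, the log2 differences between d9 and d5 were -0.95 without acetate and -1.26 with it for Sucla2, 0.73 and 0.49 for Suclg2 and -0.86 and -1.45 for Dld, all past the threshold.

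Other genes of the pathway, 41 in number, were the remaining cycle enzymes, their assembly factors and lipoylation enzymes, glutamine enzymes and mitochondrial carriers. Of these 35 were tested, and 6 had too few counts (Ogdhl, Dhtkd1, Pdk4, Me3, Slc25a18 and Slc25a21). Between d5 and d9, 12 of 35 passed without acetate (7 higher, 5 lower) and 9 of 35 with it (5 higher, 4 lower), with median log2 differences of 0.08 and 0.04. Both shares were below those of all tested genes, 37.1% and 41.6%. For acetate none passed with edgeR at d5, beside 1.52% of all tested genes, or at d9, beside 0.0303%. The unadjusted edgeR p was below 0.05 for 0 at d5 and 5 at d9, beside 2612 and 2026 of all 13182 genes. DESeq2 called 0 at d5 and 1 at d9 (Gls2, named after its values were seen), beside 786 and 335 of all.

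Among them, without acetate, Me1 (cytosolic malic enzyme, 1.26 ± 0.44, edgeR adjusted p = 0.0459) and Lipt2 (lipoyl transfer, 1.02 ± 0.27, 0.0145) rose on the log2 scale. Slc25a10 (the dicarboxylate carrier, -0.98 ± 0.27, edgeR adjusted p = 0.0151), Slc25a13 (an aspartate and glutamate carrier, -0.79 ± 0.13, 9.89e-04) and Pdpr (a regulator of the pyruvate dehydrogenase phosphatase, -0.60 ± 0.18, 0.0267) fell. With acetate, Me1 (1.69 ± 0.52, edgeR adjusted p = 0.0237), Gls2 (a glutaminase, 0.98 ± 0.33, 0.0351) and Slc25a1 (the citrate carrier, 0.67 ± 0.13, 0.00215) rose. Sdhaf3 (an assembly factor of succinate dehydrogenase, -0.93 ± 0.30, edgeR adjusted p = 0.0297) and Oat (ornithine aminotransferase, -0.82 ± 0.12, 5.00e-04) fell. Me1 was at most 1.79 CPM in the group means, and its call without acetate and that of Gls2 with acetate were lost without the 2 d9 libraries of high ribosomal protein share (edgeR adjusted p = 0.0783 and 0.0567). When single libraries were left out, edgeR adjusted p reached 0.320 and 0.181 for Me1 (without d5 without acetate replicate 1 and d5 with acetate replicate 2), 0.180 for Gls2 (d5 with acetate replicate 2), 0.121 for Lipt2 (d5 without acetate replicate 2), 0.0826 for Slc25a10 (d5 without acetate replicate 2), 0.180 for Pdpr (d5 without acetate replicate 1) and 0.152 for Sdhaf3 (d5 with acetate replicate 2). Slc25a13 without acetate, and Oat and Slc25a1 with it, held in each of the 17 alternatives. Each of these genes also passed, with a smaller change, in the other acetate state. Slc25a13 fell with acetate (-0.59 ± 0.13, edgeR adjusted p = 0.00453). Without acetate Oat fell (-0.43 ± 0.12, edgeR adjusted p = 0.0178) and Slc25a1 rose (0.38 ± 0.13, edgeR adjusted p = 0.0381).

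Some levels are uncertain because genes share sequence. Mpc1, Pdha1, Idh3b, Mdh1 and Got2 overlap exons of a gene on the opposite strand (4930506C21Rik, Map3k15, Nop56, Wdpcp and Gm45760). The library kit marks strand, but how strand was used in counting is not stated in the labels. Besides Mpc1 and Suclg2, near-identical pseudogenes drew 0.361% as many counts as Got2, 0.188% as many as Pdhb and 0.088% as many as Glud1.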

How the data were processed

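Messenger RNA of mouse CD8 T cells was sequenced in 10 libraries. The authors deposited raw counts per gene, 1 file per library; STAR, featureCounts, DESeq2 and deepTools and the GRCm38 build are named, without roles or versions, per the submitters' processing notes, and the annotation release and use of strand are not stated there. Of 53465 identifiers, 53360 matched GENCODE M21. Genes were kept with edgeR's filterByExpr (13182). All 4 groups were fitted together with edgeR 4.0.16 (R 4.3.3): TMM scaling, glmQLFit and glmQLFTest, 6 residual degrees of freedom, Benjamini-Hochberg adjustment over all kept genes, threshold 0.05. CPM use the library sizes over kept genes, scaled by TMM. Fold changes are edgeR's. The fit was also run on simulated data with 200 changed genes, and no result above rests on that run.

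The alternatives were scaling by total counts alone or by the size factors of DESeq2 (1.42.0), its Wald test, leaving out the low-count filter, fitting only the libraries compared, the replicate number as a block, and leaving out each library or the 2 d9 libraries of high ribosomal protein share. The members and lists were chosen with earlier results of these data known. The 30 genes were all named, and of other pathway genes the 6 with the largest change past the threshold in each comparison, except for an item that is not reported here. Similar genes were found with minimap2 (at least 200 bases and 95% identity).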

Additional observations from a re-analysis of the deposited data

How the results depend on the processing

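No call of the 21 in the comparisons of d9 with d5 reversed under any of 17 alternatives; 6 held in all and 15 were lost in at least 1. At d5, acetate changed 0 of the 30 genes by edgeR, 2 without the filter, 4 with DESeq2, 6 with only the libraries compared and 7 without the 2 d9 libraries of high ribosomal protein share; leaving out 1 library gave 0 to 2 (2 without d9 without acetate replicate 1). At d9, and for the difference of the acetate effects, it was 0 in every alternative run; fitting only the libraries compared was not run for the difference, which needs all 4 groups. Between d9 and d5 without acetate the count was 9, and it was 14 without the 2 d9 libraries (7 shared with the 9). With 1 d9 library left out it was 4 to 10. The 4, without d9 without acetate replicate 2, stood beside 29.56% of all tested genes. With acetate the count was 12, and it was 6 to 14 with 1 d9 library left out. The 6, without d9 with acetate replicate 3, stood beside 32.97% of all tested genes. The replicate number as a block gave 8 without and 7 with acetate, beside 32.23% and 34.56% of all tested genes. Only 5 of 13 same-numbered pairs had correlated deviations over 0.1 (r from -0.392 to 0.329). The rule for treating the numbers as pairs, that every pair exceed 0.1, was thus not met. In a group of 2 libraries the deviations mirror each other, so this check cannot show that the libraries are unpaired. With scaling by library size alone the median of all genes was -0.11 in both comparisons, against -0.01 with TMM, and the share of calls that were higher at d9 was 32.3% in place of 42.8% without acetate and 33.9% in place of 44.5% with it; among the 30 genes it gave 2 higher and 7 lower, and 2 higher and 11 lower. The cause of these shifts was not tested. Over all genes, acetate at d5 called 201, and 578 without the filter, 786 with DESeq2, 1701 with only the libraries compared, 62 with the block, 2162 without the 2 d9 libraries and 0 to 498 with 1 library left out. At d9 it called 4, and 197, 335 and 213 without the filter, with DESeq2 and without the 2 d9 libraries. Idh1 and Pdk2 rest on few counts.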
